A study of Mus musculus with 25 samples.

Results

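The fibroblast and extracellular matrix genes described here are 34 genes taken by symbol: 13 collagen chains, 3 small leucine-rich proteoglycans, 6 proteins of elastic fibres and microfibrils, 2 crosslinking enzymes, 6 matricellular or adhesive proteins, and 4 receptors or surface proteins of fibroblasts. All 34 were listed in both deposited tables, which hold 21106 genes for pups and 19942 for adults, and all 34 passed the filter on low values. The study sequenced RNA of the mouse esophagus after a cancer-derived change of NRF2, or loss of KEAP1, had been switched on in squamous cells. NRF2 is the transcription factor of the antioxidant response, KEAP1 is the adaptor that marks it for degradation, and the L30F knock-in puts phenylalanine in place of leucine at codon 30 of NRF2. Pups were 7 to 10 days old, with 3 Wild-Type libraries, 3 of KEAP1flox/flox::K5Cre and 3 of NRF2L30F/L30F::K5Cre, where K5Cre is constitutive Cre recombinase under the keratin 5 promoter. Adults were 6 to 9 weeks old, with 4 Wild-Type libraries, 4 of KEAP1flox/flox::K5CreERT2, 4 of NRF2L30F/L30F::K5CreERT2 and 4 of the heterozygous NRF2L30F/+::K5CreERT2. K5CreERT2 is the tamoxifen-inducible form, and adults were sampled 1 week after tamoxifen at 100 µg per g of body weight. The mutant groups are called L30F/+, L30F/L30F and KEAP1 fl/fl from here on. The genotype label of the wild types names no Cre while their titles carry the name of the Cre line, so whether they carried it is not known here. The Cre lines target squamous cells and not fibroblasts; whether other cells recombined was not tested. Nothing in the labels ties a library to its own animal, and the spread that the p-values rest on may be technical.

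The extracellular matrix is the network of secreted proteins that carries a tissue. Fibroblasts secrete fibrillar collagens, which assemble into fibres, are spaced by small leucine-rich proteoglycans, and are joined by lysyl oxidases into bundles that bear tension. In the esophagus this matrix lies under the squamous epithelium, in the lamina propria and submucosa and between the muscle layers, and the epithelium rests on a basement membrane built on collagen IV. Matrix synthesis is typically high in growing tissue and low in resting adult tissue, and it rises again in wound repair.

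Values are normalised reads, that is, reads scaled by the size factor of each library. The authors made 1 table per age, so levels of pups and adults are not compared. A log2 fold change is a difference of log2(normalised reads + 1) between group means. A gene is called where the limma p-value, after Benjamini-Hochberg adjustment across the whole table, is under 0.05. The reads over listed genes came to 18.8 to 19.7 M in the 9 pup libraries. Adult wild type had 27.5 to 32.3 M and KEAP1 fl/fl 22.5 to 31.3 M, while L30F/+ had 12.8 to 16.9 M and L30F/L30F 10.9 to 11.6 M, so that depth and the L30F genotype cannot be told apart in adults. In an alternative chosen after seeing the data, each library was thinned to equal depth and scaled by total reads, without size factors. It changes depth and scaling together and is not a check of depth alone. Under it 18 members were called higher in adult L30F/L30F and 20 in adult KEAP1 fl/fl. That is as many as in the main fit and as with total read scaling alone. Defining fibroblast genes were present in every library: the lowest values were 29446 for Col1a1, 5240 for Dcn and 1890 for Pdgfra. The epithelial keratin Krt5 was at 10400 or above in every library. Keap1 was at 721 to 825 in the KEAP1 fl/fl libraries of both ages and at 1053 to 1192 in wild type. Some libraries stood apart. L30F/L30F pup library 1 held 30814 reads of the thyroid gene Tg, against 30.2 or fewer in each other pup library. Among adults Tg was highest in L30F/L30F library 1, at 172 against 20.3 or fewer. L30F/L30F pup library 3 was the only 1 of the 25 with the Y-linked Ddx3y at 0. Wild-type pup library 1 was next lowest for Ddx3y at 542, against 864.51 or more in all others. L30F/+ adult library 2 was highest in its group for 31 of the 34 members, and L30F/+ adult library 3 lowest for 26. L30F/L30F adult library 1 was lowest for 30, KEAP1 fl/fl pup library 2 for 25 and KEAP1 fl/fl adult library 1 for 23. RNA was measured in bulk, so fewer fibroblasts and less matrix RNA per fibroblast cannot be told apart.

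The 34 genes together took up a smaller share of the reads than wild type in both mutant pup groups and a larger share in both homozygous adult groups. In wild-type pups they held 5.07% ± 0.15 (SD, n = 3) of all reads over listed genes. That share was 2.16% ± 0.30 (SD, n = 3) in L30F/L30F pups and 1.44% ± 0.33 (SD, n = 3) in KEAP1 fl/fl pups, and the 3 pup ranges did not overlap. In adults the share was 1.64% ± 0.15 (SD, n = 4) in wild type, 2.12% ± 0.72 (SD, n = 4) in L30F/+, 2.68% ± 0.43 (SD, n = 4) in L30F/L30F and 3.64% ± 0.39 (SD, n = 4) in KEAP1 fl/fl. The adult L30F/+ range, 1.41 to 3.12%, overlapped every other adult group's except that of KEAP1 fl/fl, and the L30F/L30F range of 2.21 to 3.22% overlapped that of KEAP1 fl/fl, 3.16 to 4.10%. This share weighs each gene by its reads, and Col3a1 and Col1a1 had the highest means of the members in every group. These means were 195800 and 164300 normalised reads in wild-type pups, and 161100 and 104100 in KEAP1 fl/fl adults. The share thus does not describe the 34 genes evenly.

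**Figure D1:**
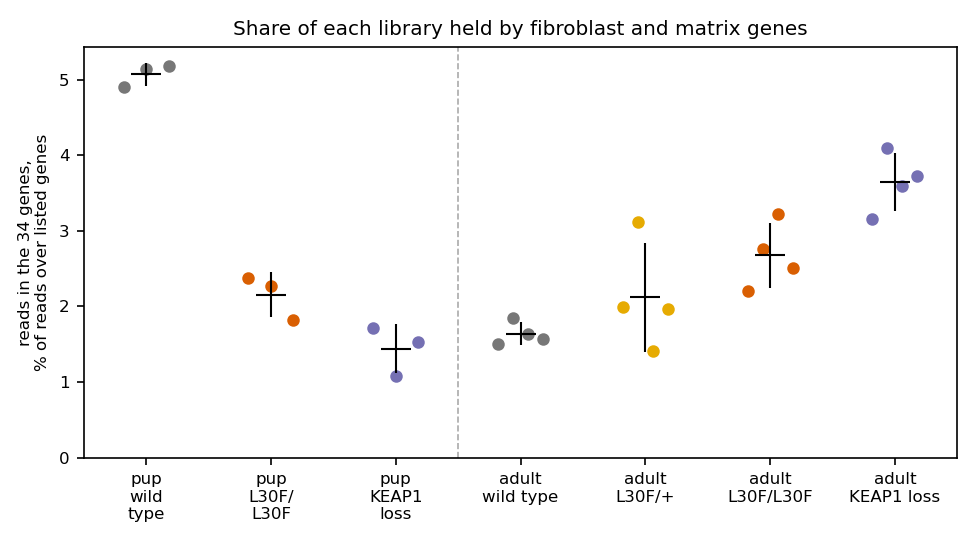
Percent of reads over listed genes that fell in the 34 genes, 1 point per library, with the group mean and SD. Pup groups stand in the order wild type (4.90 to 5.18%), L30F/L30F and KEAP1 fl/fl, and adult groups in the reverse order, wild type being lowest at 1.5 to 1.85%; the tables of the 2 ages were normalised separately.

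In L30F/L30F pups 22 members were called lower and 1 higher, beside 17.1% of all tested genes called lower and 22% called higher. Their median log2 fold change was -0.90, against -0.03 over all genes. KEAP1 fl/fl pups had 29 members lower and 0 higher, beside 23.2% and 26.3% of all genes, with medians of -1.33 and -0.05. In L30F/L30F adults 18 members were called higher and 1 lower, beside 11.8% and 10.4% of all genes. In KEAP1 fl/fl adults 20 were higher and 2 lower, beside 24.1% and 22.7%. The adult medians over the members were 0.54 and 0.72, against -0.01 over all genes in both.

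By the ranges of the libraries, 23 members lay wholly below wild type and 3 wholly above it in L30F/L30F pups, beside 25.5% and 27% of all genes. In KEAP1 fl/fl pups 30 lay below and 0 above, beside 30.8% and 30.3%. In adults, 6 members lay wholly above wild type and 0 below in L30F/+, beside 7.72% and 6.77% of all genes. In L30F/L30F it was 18 above and 1 below, beside 12.7% and 12.1%, and in KEAP1 fl/fl 21 above and 3 below, beside 25.9% and 24.2%. The mutant groups of an age share their wild-type libraries, so their effects are not independent of each other. Scaling by total reads in place of size factors shifted the median of all genes to -0.24 in L30F/L30F pups and -0.38 in KEAP1 fl/fl pups. Under it 3270 genes were higher and 6433 lower in L30F/L30F pups (4632 and 3593 with size factors), and 3369 and 9004 in KEAP1 fl/fl pups (5528 and 4876). The members' medians under that scaling were -1.11 and -1.67.

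**Figure D2:**
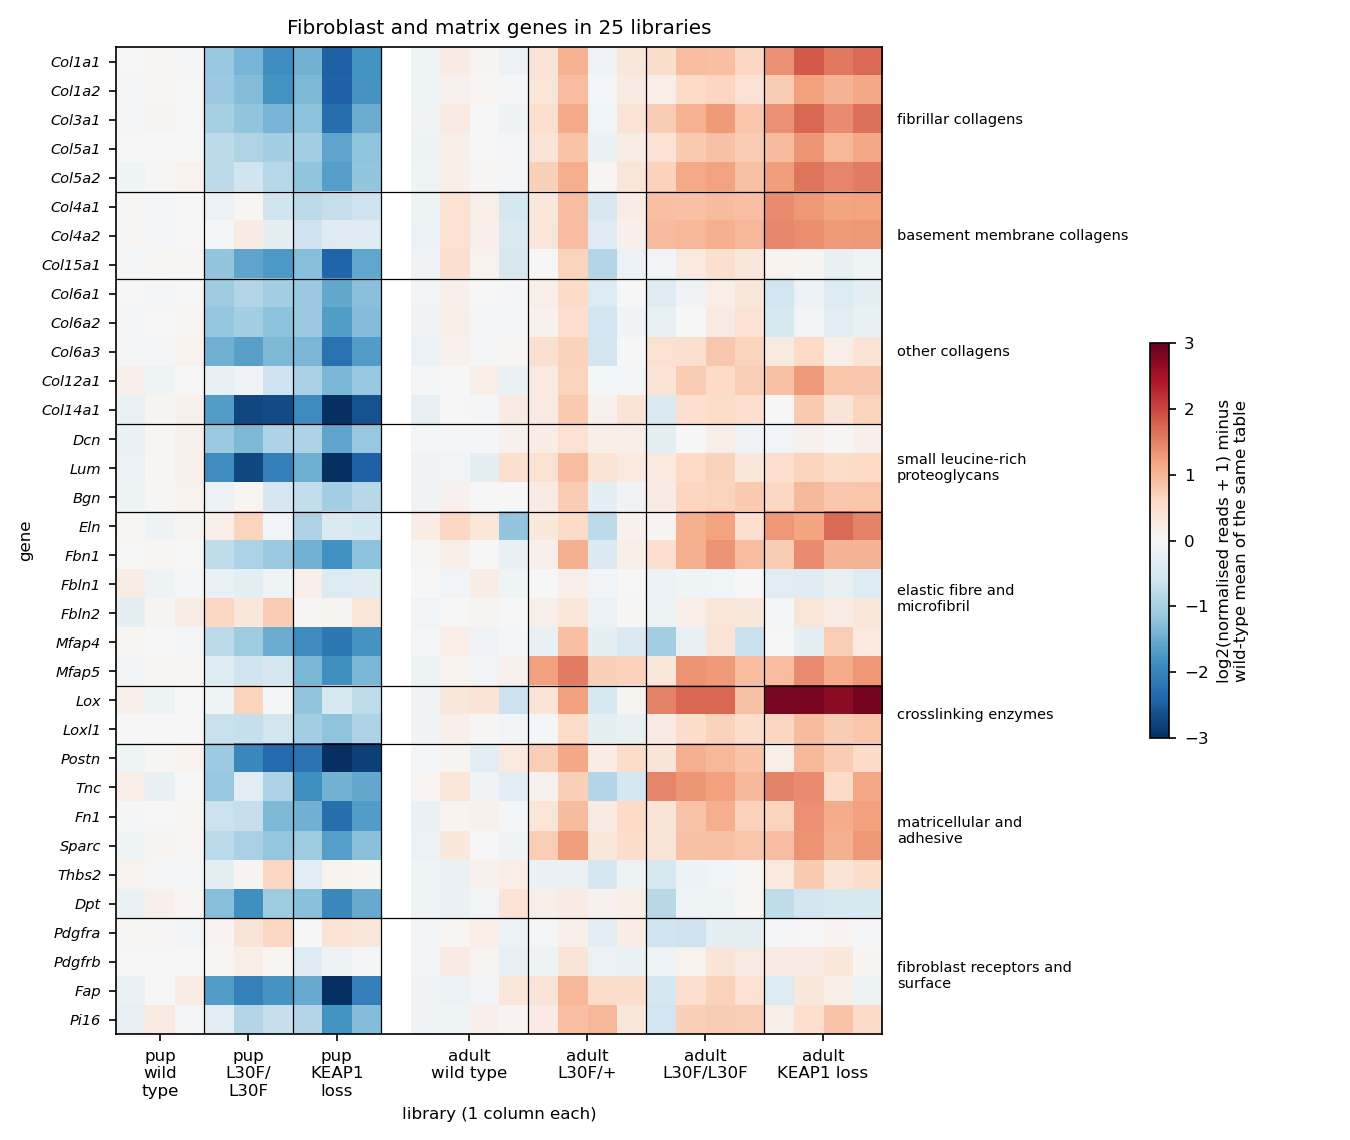
Difference of each library from the wild-type mean of its own table, in log2(normalised reads + 1), for the 34 genes grouped by role; 1 column per library, and values past either end of the colour bar take the end colour. Most rows are blue in both mutant pup groups and red in adult L30F/L30F and KEAP1 fl/fl; Fbln1, Thbs2 and Pdgfrb are among the paler rows, and L30F/+ library 2 is red in nearly every row.

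Promoter sequence was searched for all members with an entry. RefSeq promoter windows of 250 bases before to 50 bases after a start (build GRCm38.p6, whereas the deposited values were made on GRCm39) matched 20 of the 34 genes, with 24 windows. The windows were searched on both strands for 4 motifs, none of which contains another: CCAAT, which NF-Y binds, TATAAA, which the TATA-binding protein binds, GGGCGG, which SP1 binds, and TGACNNNGC, the core of the antioxidant response element, which NRF2 binds with a small MAF partner. CCAAT was found in 25% of member windows and 37.4% of all 32851 windows, and TATAAA in 25% and 13.6%. GGGCGG was found in 50% and 35.7%, and TGACNNNGC in 12.5% and 12.4%. The TGACNNNGC matches were in Col4a2, Col6a2 and Postn. Shown here, 5′ to 3′ on the gene's strand, are the 250 bases before the start of 2 fibrillar collagens that fell in KEAP1 fl/fl pups and rose in KEAP1 fl/fl adults, of Tnc, which did so in both homozygous genotypes, and of Postn at 2 starts. Postn had the lowest fold change of all members in KEAP1 fl/fl pups, and a TGACNNNGC match. Capitals mark CCAAT in Col1a2 (chr6:4505368-4505617, plus strand). They mark TATAAA in Col3a1 (chr1:45311288-45311537, plus strand), in Tnc (chr4:64047016-64047265, minus strand) and at the downstream start of Postn (chr3:54360857-54361106, plus strand), and TGACNNNGC at its upstream start (chr3:54359017-54359266, plus strand).
Col1a2: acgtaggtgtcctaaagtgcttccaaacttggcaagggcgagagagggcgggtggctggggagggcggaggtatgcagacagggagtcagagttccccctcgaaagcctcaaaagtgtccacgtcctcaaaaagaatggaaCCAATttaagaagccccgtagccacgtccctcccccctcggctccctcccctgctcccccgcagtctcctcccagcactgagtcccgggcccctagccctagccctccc
Col3a1: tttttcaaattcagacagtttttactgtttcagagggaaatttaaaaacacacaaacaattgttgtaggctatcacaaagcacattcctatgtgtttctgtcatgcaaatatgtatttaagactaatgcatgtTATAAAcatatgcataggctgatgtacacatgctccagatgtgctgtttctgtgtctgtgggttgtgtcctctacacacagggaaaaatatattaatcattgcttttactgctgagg
Tnc: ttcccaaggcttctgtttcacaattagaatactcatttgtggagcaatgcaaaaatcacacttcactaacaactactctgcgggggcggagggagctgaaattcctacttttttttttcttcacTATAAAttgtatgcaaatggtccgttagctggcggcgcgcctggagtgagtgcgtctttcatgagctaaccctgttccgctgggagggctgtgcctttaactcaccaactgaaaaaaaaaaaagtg
Postn, downstream start: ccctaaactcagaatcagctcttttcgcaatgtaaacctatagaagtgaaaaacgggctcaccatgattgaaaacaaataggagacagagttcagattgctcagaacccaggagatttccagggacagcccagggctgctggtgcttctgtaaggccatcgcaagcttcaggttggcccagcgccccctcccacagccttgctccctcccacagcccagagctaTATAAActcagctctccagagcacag
Postn, upstream start: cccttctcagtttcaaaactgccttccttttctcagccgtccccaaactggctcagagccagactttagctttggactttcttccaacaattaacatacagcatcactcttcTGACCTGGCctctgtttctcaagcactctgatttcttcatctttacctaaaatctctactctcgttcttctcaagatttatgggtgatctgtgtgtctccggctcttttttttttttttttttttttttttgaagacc
The TATAAA match lies 26 bases before the downstream Postn start, 117 before the Col3a1 start and 126 before the Tnc start, and the CCAAT match lies 109 bases before the Col1a2 start. The starts of Col4a1 and Col4a2, which lie head to head on chromosome 8, were 21 bases apart on opposite strands, and their windows share 78 bases. A match describes letters in these windows and not a bound site.

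The 5 fibrillar collagen genes fell in both mutant pup groups and were higher in both homozygous adult groups, with 1 call missing among the 20. Of all genes, 17.1% and 23.2% were called lower in L30F/L30F and KEAP1 fl/fl pups, and 11.8% and 24.1% higher in the adult groups. These genes encode the chains of collagen I (Col1a1, Col1a2), collagen III (Col3a1) and collagen V (Col5a1, Col5a2), the last of which seeds and limits the width of the fibrils. Col1a1 (ENSMUSG00000001506) had 163357, 170258 and 159309 normalised reads in wild-type pups, 75027, 62255 and 45229 in L30F/L30F pups and 61778, 30259.7 and 47597 in KEAP1 fl/fl pups. Both mutant groups lay below the wild type with no overlap. It fell by 1.46 log2 units (adjusted p = 0.0023, SE 0.26) in L30F/L30F pups, 2.76-fold. Col1a1 fell by 1.88 log2 units (adjusted p = 3.8e-4, SE 0.26) in KEAP1 fl/fl pups. In adults Col1a1 was at 30504, 39692, 35213 and 29446 in wild type, 43716, 68843, 30883 and 42291 in L30F/+, 48188, 63137, 62143 and 51144 in L30F/L30F and 86784, 119442, 100779.5 and 109263 in KEAP1 fl/fl. The KEAP1 fl/fl libraries were all above the L30F/L30F libraries, which were all above wild type. The L30F/+ libraries ran across the wild-type and L30F/L30F ranges. Col1a1 rose by 0.74 log2 units (adjusted p = 0.011, SE 0.19) in adult L30F/L30F. In adult KEAP1 fl/fl the rise was larger, and it rose by 1.63 log2 units (adjusted p = 4.1e-6, SE 0.19).

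Col3a1 was at 186662, 207517 and 193218 normalised reads in wild-type pups, 98058, 85624 and 74189 in L30F/L30F and 83595, 41095 and 69833 in KEAP1 fl/fl. Every mutant pup library had less than every wild-type one. The adult libraries held 50854, 65714, 55094 and 49375 in wild type, 77926, 120439.8, 52197 and 73422 in L30F/+, 92974, 113022, 133906 and 97495 in L30F/L30F and 142377, 181444, 147818 and 172827 in KEAP1 fl/fl, and here the 2 homozygous groups lay above the wild type without overlap. Col3a1 rose by 1.55 log2 units (adjusted p = 9.2e-6, SE 0.19) in adult KEAP1 fl/fl. Col1a2 was the gene with the missing call. In adult L30F/L30F its log2 fold change was 0.47 (adjusted p = 0.053, SE 0.17), with groups that did not overlap. In adult KEAP1 fl/fl it rose by 1.04 log2 units (adjusted p = 9.0e-5, SE 0.17).

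The collagen V genes had the smallest adjusted p for a difference between ages. Col5a2 was at 11387, 12772 and 13378 in wild-type pups, 7288, 8231 and 6953 in L30F/L30F and 5397, 4002 and 5513 in KEAP1 fl/fl, and it fell in both (log2 -0.74 and -1.34). In adults it was at 4366, 5289.8, 4872 and 4535 in wild type, 7810.3, 10068, 4956 and 6104 in L30F/+, 7639.9, 10459.7, 11051 and 8724 in L30F/L30F and 11272, 14568, 13187 and 13966 in KEAP1 fl/fl, so both homozygous groups were wholly above wild type. Its partner Col5a1 had 23242, 23381 and 23683 in wild-type pups, 13673, 12500.0 and 11482 in L30F/L30F and 11434, 7855 and 10153 in KEAP1 fl/fl. Adult Col5a1 was at 7051, 8802, 7795 and 7635 in wild type, 10114, 14183, 6775 and 9166 in L30F/+, 10562, 13412, 14414 and 13113 in L30F/L30F and 15019, 19394, 15489.8 and 17367 in KEAP1 fl/fl. The homozygous groups lay as for Col5a2, with no overlap of either homozygous group with wild type at either age. Over the 5 fibrillar genes the median log2 fold changes were -1.20 and -1.65 in pups and 0.74 and 1.47 in adults, L30F/L30F first.

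**Figure D3:**
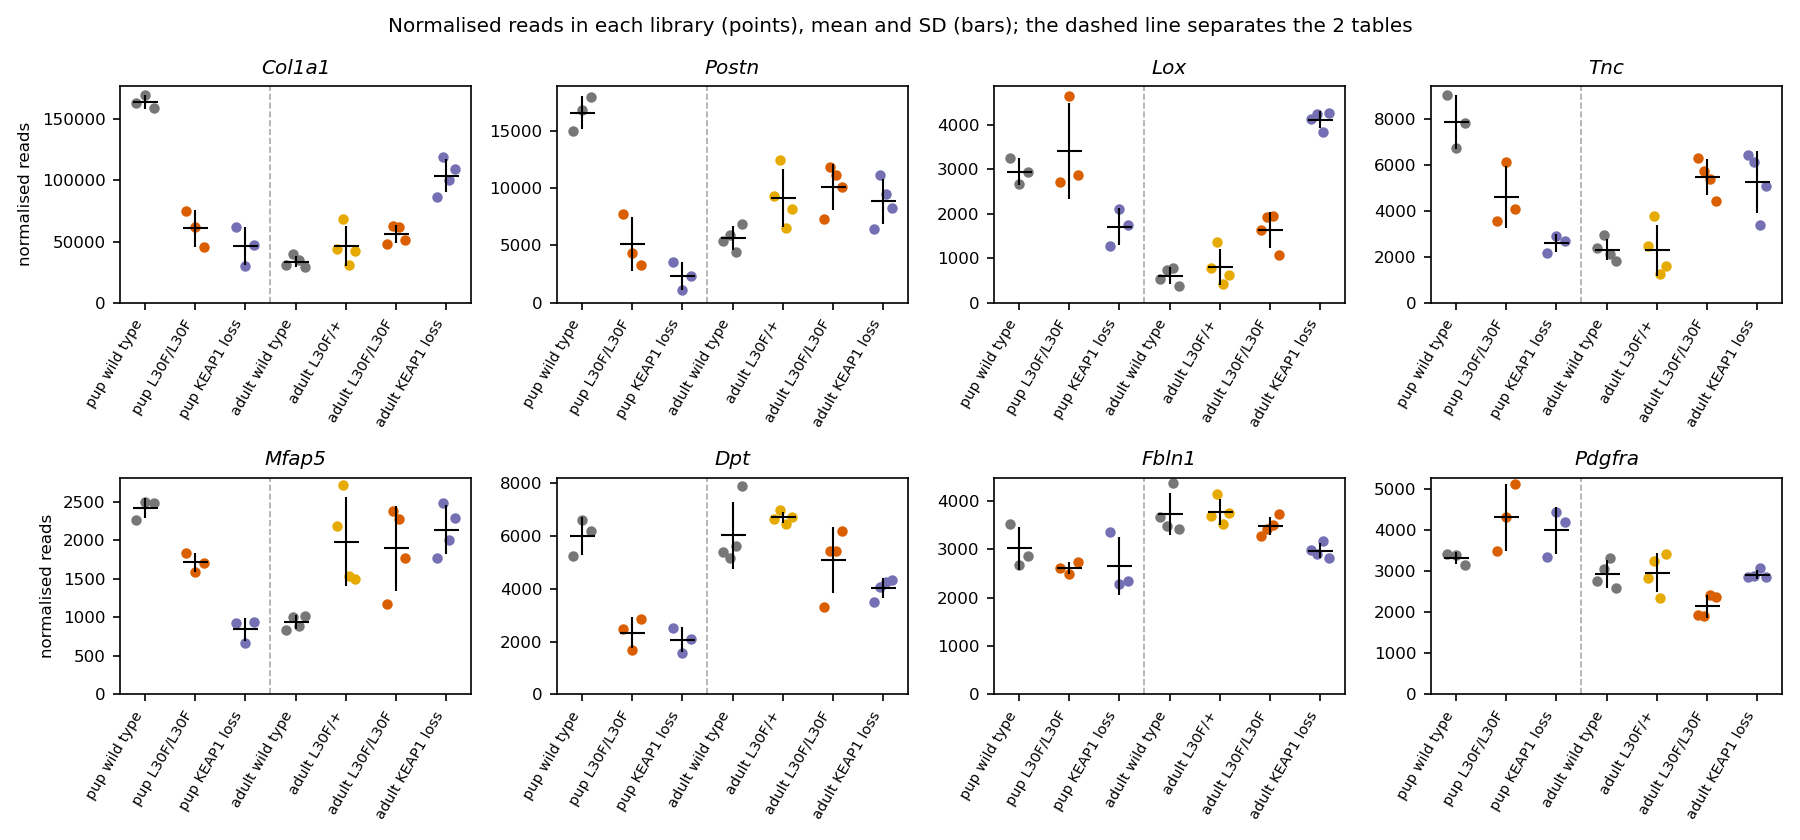
Normalised reads of 8 members in each library (points), with the group mean and SD; the dashed line separates the 2 tables, and each vertical axis starts at 0. Col1a1, Postn, Tnc and Mfap5 are lower in mutant pups and higher in homozygous mutant adults, Lox is highest in KEAP1 fl/fl adults within its table, and Dpt, Fbln1 and Pdgfra do not share that pattern.

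Collagen IV, the sheet-forming collagen of basement membranes, was not called in L30F/L30F pups, fell in KEAP1 fl/fl pups and rose in both homozygous adult groups. Col4a2 had 16049.5, 15204 and 15406 normalised reads in wild-type pups, 15113, 18302 and 12846 in L30F/L30F and 10108, 11871 and 11940.0 in KEAP1 fl/fl. The L30F/L30F values spanned the wild-type values, and the KEAP1 fl/fl values were all below them. Its log2 fold change was -0.03 (adjusted p = 0.88, SE 0.12) in L30F/L30F pups, with a 95% interval of -0.29 to 0.24. Col4a2 fell by 0.46 log2 units (adjusted p = 0.0088, SE 0.12) in KEAP1 fl/fl pups. In adults it was at 3803, 5924, 4801 and 3212 in wild type, 5588, 8196, 3314 and 4760.1 in L30F/+, 8328, 8569, 9038 and 8654 in L30F/L30F and 11780.5, 11415, 10487 and 10647 in KEAP1 fl/fl. Both homozygous groups were wholly above the wild type, and Col4a2 rose 2-fold and 2.56-fold (adjusted p = 0.0042 and 9.5e-5). Col4a1, the other chain of the same trimer, had a log2 fold change of -0.24 (adjusted p = 0.19, SE 0.14) in L30F/L30F pups. It rose by 0.91 log2 units (adjusted p = 0.011, SE 0.23) in adult L30F/L30F. In adult KEAP1 fl/fl Col4a1 rose by 1.28 log2 units (adjusted p = 3.0e-4, SE 0.23). Col15a1, a collagen found on the outer side of basement membranes, fell by 1.5 log2 units (adjusted p = 0.0029, SE 0.27) in L30F/L30F pups. Col15a1 fell by 1.75 log2 units (adjusted p = 8.8e-4, SE 0.27) in KEAP1 fl/fl pups. It was called in neither homozygous adult group, with log2 fold changes of 0.26 and -0.04.

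Among the other collagens, those that sit on or between fibrils, 4 of 5 fell in L30F/L30F pups and 5 of 5 in KEAP1 fl/fl pups. Of all genes, 17.1% and 23.2% were called lower there. In L30F/L30F and KEAP1 fl/fl adults 2 and 1 of the 5 rose, beside 11.8% and 24.1% of all genes. The KEAP1 fl/fl adult count was thus under the share of all genes. Col14a1, a fibril-associated collagen, was at 7037, 8554 and 8802 in wild-type pups, 2538, 1226 and 1250.4 in L30F/L30F and 2177, 415 and 1313 in KEAP1 fl/fl. KEAP1 fl/fl library 2 was lowest of the 9, and no mutant library reached a wild-type value. It fell by 2.36 log2 units (adjusted p = 0.02, SE 0.61) in L30F/L30F pups, the lowest fold change there of all members. That call ended without wild-type library 2 or 3 or without L30F/L30F library 2 or 3 (adjusted p 0.061 to 0.068). Col14a1 fell by 2.93 log2 units (adjusted p = 0.0063, SE 0.61) in KEAP1 fl/fl pups. Adult Col14a1 was at 3019, 3615, 3523 and 4338 in wild type, 4336, 6235, 3912 and 4778 in L30F/+, 2671, 5077, 5292 and 5117 in L30F/L30F and 3537, 6163, 4686 and 5751 in KEAP1 fl/fl, and these groups overlapped. Its log2 fold changes in L30F/L30F and KEAP1 fl/fl adults were 0.28 (adjusted p = 0.39, SE 0.22) and 0.45 (adjusted p = 0.11, SE 0.22). Col6a1, Col6a2 and Col6a3 encode collagen VI, the beaded microfibril around cells. All 3 fell in both pup groups, Col6a3 with the lowest log2 fold changes (-1.47 and -1.76). In L30F/L30F and KEAP1 fl/fl adults the log2 fold changes of Col6a1 were 0.02 and -0.36, and those of Col6a2 0.11 and -0.28, none of them called.

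Col6a3 was the collagen VI gene with an adult call. It was at 31972, 31705 and 35379.8 in wild-type pups, 12181, 10738 and 12886 in L30F/L30F and 12804, 6956 and 10394 in KEAP1 fl/fl. Adult values were 9977, 12261, 11001 and 11693 in wild type, 15545, 18175, 7606 and 11153 in L30F/+, 15344, 15722, 19552 and 17796 in L30F/L30F and 13509, 17007, 12723 and 14991 in KEAP1 fl/fl. Adult L30F/L30F and KEAP1 fl/fl libraries were above all wild-type libraries. Col6a3 rose by 0.60 log2 units (adjusted p = 0.04, SE 0.20) in adult L30F/L30F. Leaving out any 1 wild-type library, any 1 L30F/L30F library or KEAP1 fl/fl library 4 ended that call (9 libraries, adjusted p 0.051 to 0.11). In adult KEAP1 fl/fl its log2 fold change was 0.37 (adjusted p = 0.14, SE 0.20). Col12a1, which links fibrils under tension, had a log2 fold change of -0.32 (adjusted p = 0.11, SE 0.14) in L30F/L30F pups. Col12a1 fell by 1.17 log2 units (adjusted p = 1.1e-4, SE 0.14) in KEAP1 fl/fl pups. It rose by 0.63 and 0.95 log2 units in the 2 homozygous adult groups (adjusted p = 0.0078 and 9.5e-5).

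The small leucine-rich proteoglycans bind collagen fibrils and set their spacing. Lumican (Lum) was at 8309, 9797 and 10365 in wild-type pups, 2584, 1430.2 and 2269.5 in L30F/L30F and 3419.8, 804 and 1769 in KEAP1 fl/fl. KEAP1 fl/fl library 2 was again lowest and no mutant value reached the wild type. Lum fell by 2.22 log2 units (adjusted p = 0.012, SE 0.50) in L30F/L30F pups, 4.65-fold. Lum fell by 2.48 log2 units (adjusted p = 0.0055, SE 0.50) in KEAP1 fl/fl pups. Adult Lum was at 3714, 3734, 3245 and 5533 in wild type, 5455, 7501, 5242 and 4831 in L30F/+, 4857, 6028, 6406 and 4937 in L30F/L30F and 5666, 6278, 5846 and 6053 in KEAP1 fl/fl. Wild-type library 4 lay within the range of both L30F groups, and KEAP1 fl/fl was wholly above wild type. Lum rose by 0.58 log2 units (adjusted p = 0.0056, SE 0.15) in adult KEAP1 fl/fl. In adult L30F/L30F it rose by 0.47 log2 units (adjusted p = 0.039, SE 0.15), where the call ended without wild-type library 1, 2 or 3 or L30F/L30F library 2 or 3 (adjusted p 0.091 to 0.12). Decorin (Dcn) fell by 1.13 log2 units (adjusted p = 7.0e-4, SE 0.17) in L30F/L30F pups. Dcn fell by 1.22 log2 units (adjusted p = 3.0e-4, SE 0.17) in KEAP1 fl/fl pups. Its adult log2 fold change was -0.04 (adjusted p = 0.79, SE 0.10) in L30F/L30F and 0.05 (adjusted p = 0.68, SE 0.10) in KEAP1 fl/fl. Biglycan (Bgn) had a log2 fold change of -0.21 (adjusted p = 0.26, SE 0.14) in L30F/L30F pups. In L30F/L30F adults it rose by 0.59 log2 units (adjusted p = 0.025, SE 0.18). That call ended without wild-type library 1 or 3 or L30F/L30F library 2, 3 or 4 (adjusted p 0.052 to 0.070). In KEAP1 fl/fl, Bgn fell in pups (log2 -0.87) and rose in adults (log2 0.81).

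Elastic fibres are a core of elastin on a scaffold of fibrillin microfibrils, and the calls of their genes ran in both directions. Fibrillin 1 (Fbn1) fell in both mutant pup groups (log2 -0.94 and -1.49) and rose in both homozygous adult groups (log2 0.96 and 1.06). Mfap5, a microfibril protein that binds fibrillin, was at 2261, 2493 and 2484 in wild-type pups, 1837, 1587 and 1707 in L30F/L30F and 926, 669 and 936 in KEAP1 fl/fl. The 3 pup groups were fully separate, with KEAP1 fl/fl lowest. In adults it was at 836, 1001, 886 and 1021 in wild type, 2177, 2709.6, 1532 and 1497 in L30F/+, 1171, 2374, 2268 and 1761 in L30F/L30F and 1767, 2479, 2007 and 2289.6 in KEAP1 fl/fl. Every mutant library of all 3 genotypes was above every wild-type library. Mfap5 rose by 1.04 log2 units (adjusted p = 0.0091, SE 0.22) in L30F/+ adults. In L30F/L30F adults it rose by 0.97 log2 units (adjusted p = 0.0053, SE 0.22). Mfap5 rose by 1.18 log2 units (adjusted p = 3.4e-4, SE 0.22) in KEAP1 fl/fl adults. Mfap4, another microfibril protein, fell in both pup groups (log2 -1.11 and -1.94) and was called in neither adult group (-0.39 and 0.19).

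Elastin itself (Eln) was called only in KEAP1 fl/fl among the comparisons with wild type. It fell by 0.63 log2 units (adjusted p = 0.023, SE 0.19) in pups. That call ended without wild-type library 1 or 3 or KEAP1 fl/fl library 1 (adjusted p 0.066 to 0.073). In adults Eln rose by 1.42 log2 units (adjusted p = 0.0063, SE 0.37). In L30F/L30F its log2 fold changes were 0.26 (adjusted p = 0.33, SE 0.19) in pups and 0.71 (adjusted p = 0.19, SE 0.37) in adults. The fibulins, which bridge elastic fibres and basement membranes, had calls against the majority. Fbln2 was at 2478, 3215 and 3524 in wild-type pups, 4682, 3848 and 5118 in L30F/L30F and 3125, 3223 and 3937 in KEAP1 fl/fl. The L30F/L30F libraries were all above wild type, and Fbln2 was the only member called higher in a pup comparison with wild type. It rose by 0.57 log2 units (adjusted p = 0.015, SE 0.15). The call ended without L30F/L30F library 3, with scaling by total reads and after thinning to equal depth (adjusted p = 0.052, 0.086 and 0.087). Fbln1 was at 3663, 3488, 4374 and 3429.8 in adult wild type, 3695, 4143, 3517 and 3751 in L30F/+, 3269, 3429, 3511 and 3731 in L30F/L30F and 2978, 2915, 3182 and 2829.6 in KEAP1 fl/fl. The KEAP1 fl/fl libraries were below all the others. Fbln1 fell by 0.32 log2 units (adjusted p = 0.003, SE 0.08) there. After thinning to equal depth its adjusted p was 0.061. Its pup log2 fold change was -0.20 (adjusted p = 0.33, SE 0.15) in L30F/L30F and -0.20 (adjusted p = 0.3, SE 0.15) in KEAP1 fl/fl.

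The largest adult rise of any member was that of Lox, the lysyl oxidase that starts the crosslinking of collagen and elastin. Adult Lox was at 541, 736, 782 and 374 in wild type, 770.1, 1369.8, 420.2 and 622 in L30F/+, 1639, 1917, 1941 and 1071 in L30F/L30F and 4122, 4241, 3824 and 4254 in KEAP1 fl/fl. The KEAP1 fl/fl libraries were close to each other and all above L30F/L30F, which was all above wild type. Lox rose by 1.45 log2 units (adjusted p = 0.0042, SE 0.31) in L30F/L30F adults, 2.73-fold. Lox rose by 2.81 log2 units (adjusted p = 3.5e-6, SE 0.31) in KEAP1 fl/fl adults, 7.02-fold. Its pup values were 3250.2, 2657 and 2927 in wild type, 2699, 4650.5 and 2874 in L30F/L30F and 1282, 2100.3 and 1743 in KEAP1 fl/fl. L30F/L30F library 2 was the highest pup library and the KEAP1 fl/fl libraries were all below the others. Its log2 fold change was 0.17 (adjusted p = 0.6, SE 0.23) in L30F/L30F pups. Lox fell by 0.81 log2 units (adjusted p = 0.019, SE 0.23) in KEAP1 fl/fl pups, where leaving out wild-type library 1 or 3 or KEAP1 fl/fl library 1 ended the call (adjusted p 0.051 to 0.062).

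Loxl1, the lysyl oxidase mainly tied to elastic fibres, was called in the same direction as Lox in adults. It was at 3916, 3975 and 4011 in wild-type pups, 2504, 2453 and 2690.3 in L30F/L30F and 1952, 1711 and 2089.6 in KEAP1 fl/fl. The 3 ranges were separate. In adults it was at 1987, 2388, 2202 and 2027 in wild type, 2079.9, 3118, 1749 and 1842 in L30F/+, 2530.3, 3101, 3445 and 3103 in L30F/L30F and 3329, 4112, 3662 and 3841 in KEAP1 fl/fl. Both homozygous groups lay above wild type. Loxl1 fell by 0.64 log2 units (adjusted p = 1.4e-4, SE 0.08) in L30F/L30F pups. Loxl1 fell by 1.05 log2 units (adjusted p = 2.4e-6, SE 0.08) in KEAP1 fl/fl pups. In adult KEAP1 fl/fl it rose by 0.80 log2 units (adjusted p = 3.4e-4, SE 0.15). In adult L30F/L30F it rose by 0.50 log2 units (adjusted p = 0.024, SE 0.15), and the call ended without wild-type library 1 or 4 or L30F/L30F library 2 or 3 (adjusted p 0.051 to 0.070).

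Matricellular proteins sit in the matrix and act on cells more than they carry load; they are typical of developing and repairing tissue. Postn (periostin) had the lowest fold change of all members in KEAP1 fl/fl pups. It was at 15029, 16843 and 17949.8 in wild-type pups, 7772, 4356 and 3263 in L30F/L30F and 3544, 1089 and 2367 in KEAP1 fl/fl. No mutant library reached a wild-type value, and the 2 mutant groups overlapped. Postn fell by 2.99 log2 units (adjusted p = 0.0016, SE 0.47) in KEAP1 fl/fl pups, 7.92-fold. In L30F/L30F pups it fell by 1.79 log2 units (adjusted p = 0.022, SE 0.47), where the call ended without wild-type library 2 or 3 or L30F/L30F library 2 or 3 (adjusted p 0.062 to 0.066). Adult Postn was at 5373, 5925, 4424 and 6892 in wild type, 9353, 12479, 6506 and 8167 in L30F/+, 7324, 11894, 11159 and 10081 in L30F/L30F and 6455, 11125, 9528 and 8279 in KEAP1 fl/fl. The L30F/L30F libraries were all above wild type, while KEAP1 fl/fl library 1 was not. Postn rose by 0.83 log2 units (adjusted p = 0.011, SE 0.21) in L30F/L30F adults. Postn rose by 0.64 log2 units (adjusted p = 0.021, SE 0.21) in KEAP1 fl/fl adults, a call that ended without wild-type library 3 or KEAP1 fl/fl library 2 or 3 (adjusted p 0.055 to 0.073).

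Tenascin C (Tnc), a matricellular protein of wounds and of embryonic mesenchyme, was at 9055, 6737 and 7852 in wild-type pups, 3580.4, 6149.5 and 4095 in L30F/L30F and 2171, 2928 and 2680.2 in KEAP1 fl/fl. The wild-type libraries were highest, with L30F/L30F library 2 next. In adults it was at 2394, 2936, 2136 and 1807 in wild type, 2494, 3776, 1245 and 1605 in L30F/+, 6307, 5745, 5382 and 4451 in L30F/L30F and 6422, 6148, 3408 and 5073 in KEAP1 fl/fl. Both homozygous groups were above wild type and L30F/+ ran across it. Tnc fell by 0.80 log2 units (adjusted p = 0.014, SE 0.21) in L30F/L30F pups. Tnc fell by 1.60 log2 units (adjusted p = 2.2e-4, SE 0.21) in KEAP1 fl/fl pups. In L30F/L30F adults Tnc rose by 1.25 log2 units (adjusted p = 0.007, SE 0.29). Tnc rose by 1.16 log2 units (adjusted p = 0.004, SE 0.29) in KEAP1 fl/fl adults. Sparc, a collagen chaperone and calcium-binding matricellular protein, was at 33277, 38167 and 37301 in wild-type pups, 20708, 18314 and 16234 in L30F/L30F and 17195, 11603 and 15279 in KEAP1 fl/fl. Both mutant groups were below wild type. Adult Sparc was at 10701, 15042, 12149.6 and 11033 in wild type, 20187, 28928, 15090.1 and 17584 in L30F/+, 15766, 22329, 22289 and 21495 in L30F/L30F and 23149, 30608, 25246 and 29982 in KEAP1 fl/fl. Every mutant library was above every wild-type one, and Sparc rose in all 3 mutant groups (log2 0.71, 0.74 and 1.16).

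Fibronectin (Fn1), the adhesive protein on which new matrix is laid, fell by 0.89 log2 units (adjusted p = 0.015, SE 0.23) in L30F/L30F pups. Fn1 fell by 1.79 log2 units (adjusted p = 2.5e-4, SE 0.23) in KEAP1 fl/fl pups. In adults Fn1 rose by 0.76 log2 units (adjusted p = 0.0067, SE 0.18) in L30F/L30F. It rose by 1.10 log2 units (adjusted p = 1.0e-4, SE 0.18) in KEAP1 fl/fl. Thbs2 (thrombospondin 2) was not called in pups, at 0.13 (adjusted p = 0.64, SE 0.21) in L30F/L30F and -0.06 (adjusted p = 0.84, SE 0.21) in KEAP1 fl/fl. Among adults it was called against wild type in KEAP1 fl/fl, where it rose by 0.51 log2 units (adjusted p = 0.0051, SE 0.13). Dermatopontin (Dpt), which binds decorin and promotes fibril assembly, was at 5235, 6629.7 and 6179 in wild-type pups, 2466, 1681 and 2843 in L30F/L30F and 2513, 1569 and 2114 in KEAP1 fl/fl. Both mutant groups were wholly below the wild type. Adult Dpt was at 5397, 5156, 5638 and 7909.5 in wild type, 6654, 6994, 6476 and 6740.1 in L30F/+, 3321, 5424, 5449 and 6207 in L30F/L30F and 3508, 4055, 4267 and 4318 in KEAP1 fl/fl. The KEAP1 fl/fl libraries were again wholly below wild type. Dpt fell by 1.56 log2 units (adjusted p = 4.4e-4, SE 0.22) in KEAP1 fl/fl pups. Dpt fell by 0.56 log2 units (adjusted p = 0.01, SE 0.16) in KEAP1 fl/fl adults, and it was the 1 member called lower at both ages in the same genotype.

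The PDGF receptors of fibroblasts were called in 1 of their 10 comparisons with wild type. Pdgfra, the PDGF receptor that marks fibroblasts broadly, was at 3406, 3381 and 3145 in wild-type pups, 3486, 4312 and 5103 in L30F/L30F and 3331, 4426 and 4193 in KEAP1 fl/fl. Pup L30F/L30F values were all above wild type, by a log2 fold change of 0.36 (adjusted p = 0.071, SE 0.14) that was not called. Its 95% interval, not adjusted over genes, was 0.04 to 0.68, and in KEAP1 fl/fl pups -0.06 to 0.58. Adult Pdgfra was at 2753, 3044, 3323 and 2575 in wild type, 2818, 3238, 2345 and 3401 in L30F/+, 1915, 1890.2, 2406 and 2368 in L30F/L30F and 2852, 2874, 3067 and 2853 in KEAP1 fl/fl. The L30F/L30F libraries were below all wild-type and KEAP1 fl/fl libraries. Pdgfra fell by 0.45 log2 units (adjusted p = 0.011, SE 0.12) there, while its log2 fold change in KEAP1 fl/fl was 0.00 (adjusted p = 1, SE 0.12). Pdgfrb, the receptor shared with pericytes, was called in no comparison with wild type, its log2 fold changes running from -0.20 in KEAP1 fl/fl pups to 0.24 in KEAP1 fl/fl adults.

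The surface protease Fap, a marker of activated fibroblasts, was at 393, 447 and 526 in wild-type pups, 141, 110.4 and 132 in L30F/L30F and 158, 36.1 and 108 in KEAP1 fl/fl. All mutant libraries were below wild type, with KEAP1 fl/fl library 2 lowest. It fell by 1.82 log2 units (adjusted p = 0.013, SE 0.46) in L30F/L30F pups. Fap fell by 2.39 log2 units (adjusted p = 0.0026, SE 0.46) in KEAP1 fl/fl pups. In adults Fap was at 188, 179.7, 192 and 262 in wild type, 266, 407, 298 and 290.5 in L30F/+, 144, 289, 330.2 and 277 in L30F/L30F and 152, 253, 229.8 and 183 in KEAP1 fl/fl. The L30F/+ libraries lay wholly above wild type, with a log2 fold change of 0.61 (adjusted p = 0.11, SE 0.23) that was not called. The homozygous groups overlapped wild type, with log2 fold changes of 0.29 (adjusted p = 0.4, SE 0.23) and -0.02 (adjusted p = 0.96, SE 0.23). Pi16, which marks fibroblasts of the adventitia, fell by 1.32 log2 units (adjusted p = 0.0016, SE 0.24) in KEAP1 fl/fl pups. It was not called in the other comparisons with wild type, with log2 fold changes of -0.63 in L30F/L30F pups, 0.62 in L30F/+ adults, 0.41 in L30F/L30F adults and 0.53 in KEAP1 fl/fl adults. All L30F/+ and KEAP1 fl/fl adult libraries were above the wild-type ones, while L30F/L30F library 1 was below them.

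The genotype effect in adults minus that in pups was then tested gene by gene over the 19031 genes measured at both ages, each difference being set against the standard errors of both effects. For L30F/L30F, 27 members had an effect that was higher in adults and 1 lower, beside 13.6% and 19.9% of all genes. The median difference was 1.27 log2 units over the members and -0.04 over all genes. For KEAP1 fl/fl, 30 were higher and 0 lower, beside 20.6% and 26.5% of all genes, with medians of 2.12 and -0.05. Col5a2 had the smallest adjusted p of the members in both genotypes: the effect differed by 1.72 (adjusted p = 5.0e-7, SE 0.21) for L30F/L30F and 2.82 (adjusted p = 4.7e-11, SE 0.21) for KEAP1 fl/fl. For L30F/L30F it was followed by Col5a1 at 1.62 (adjusted p = 8.1e-7, SE 0.21), Sparc at 1.72 (adjusted p = 1.2e-6, SE 0.23) and Col6a3 at 2.07 (adjusted p = 2.0e-6, SE 0.27). For KEAP1 fl/fl, Col5a1 stood at 2.37 (adjusted p = 6.2e-10, SE 0.21), Sparc at 2.48 (adjusted p = 1.4e-9, SE 0.23) and Loxl1 at 1.85 (adjusted p = 2.6e-9, SE 0.17). Pdgfra was the member called lower in L30F/L30F, -0.81 (adjusted p = 0.0015, SE 0.18). The L30F/L30F call of Pi16 ended without pup wild-type library 2, pup L30F/L30F library 2 or 3, or adult L30F/L30F library 2, 3 or 4 (adjusted p 0.057 to 0.072). The KEAP1 fl/fl call of Pdgfrb ended without pup KEAP1 fl/fl library 1, adult wild-type library 1 or 4, or adult KEAP1 fl/fl library 1, 2 or 3 (adjusted p 0.054 to 0.092). Scaling by total reads moved the median difference of all genes to 0.21 and 0.37. Under it 4728 genes were higher and 2494 lower for L30F/L30F (2582 and 3787 with size factors), and 7385 and 2791 for KEAP1 fl/fl (3922 and 5045). The members' medians were then 1.51 and 2.55. Ages also differ in the Cre line, the tamoxifen and the time since recombination, so these cannot be told apart from age.

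Members called both lower in pups and higher in adults were 13 for L30F/L30F, beside 1.89% of the 19031 genes tested at both ages, and 19 for KEAP1 fl/fl, beside 4.92%. For L30F/L30F these were Col1a1, Col3a1, Col5a1, Col5a2, Col6a3, Lum, Fbn1, Mfap5, Loxl1, Postn, Tnc, Fn1 and Sparc. KEAP1 fl/fl had all of these but Col6a3, and in addition Col1a2, Col4a1, Col4a2, Col12a1, Bgn, Eln and Lox. A further 9 members for L30F/L30F and 10 for KEAP1 fl/fl were called lower in pups and not higher in adults, beside 15.2% and 17.9% of all genes. Col14a1, Col15a1, Col6a1, Col6a2, Dcn, Mfap4, Dpt and Fap were among these in both genotypes, with Col1a2 in addition for L30F/L30F, and Col6a3 and Pi16 for KEAP1 fl/fl. Called higher in adults alone were 5 members for L30F/L30F (Col4a1, Col4a2, Col12a1, Bgn and Lox) and 1 for KEAP1 fl/fl (Thbs2), beside 10.2% and 19% of all genes.

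**Figure D4:**
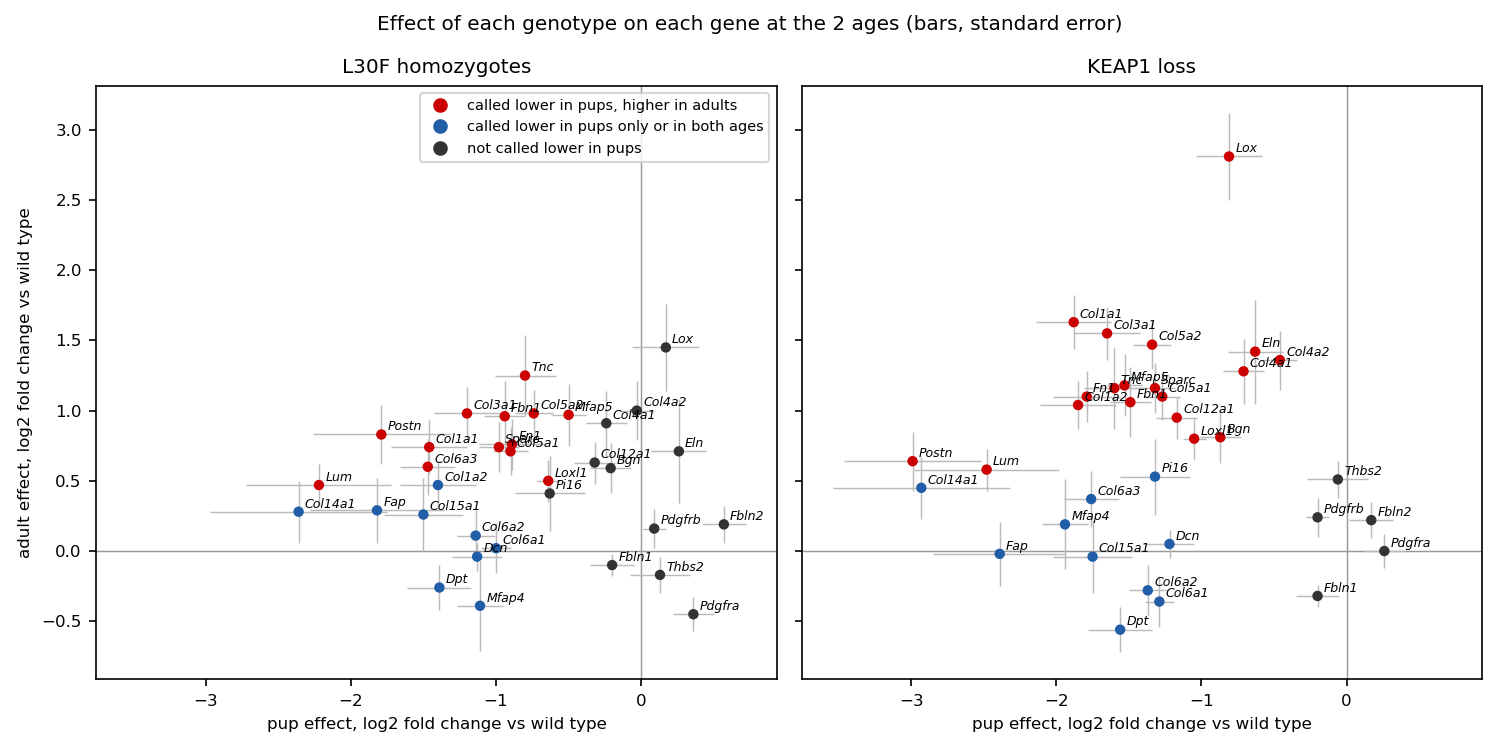
Log2 fold change against wild type in pups (horizontal) and adults (vertical) for each of the 34 genes, with standard errors, for L30F/L30F (left) and KEAP1 fl/fl (right); colours give the calls. The 13 and 19 red points lie at the upper left, and Lox stands highest in both panels.

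Adult heterozygotes were compared to see the members under a single mutant allele. In L30F/+ 3 members were called higher and 0 lower, beside 4.8% and 4.9% of all genes. These were Mfap5, described above, Sparc and Lum. Sparc rose by 0.71 log2 units (adjusted p = 0.022, SE 0.18), and Lum rose by 0.51 log2 units (adjusted p = 0.048, SE 0.15). The median over the members was 0.25, against 0.01 over all genes. It was 0.04 without L30F/+ library 2 and 0.43 without L30F/+ library 3, with 0.01 over all genes each time. Lum lost its call without any 1 of 13 adult libraries, that is, all 16 but wild-type library 4, L30F/+ library 4 and L30F/L30F library 3 (adjusted p 0.050 to 0.14). It also lost it with TMM (0.052) or total read scaling (0.094), thinning to equal depth (0.098) and the compared groups alone (0.13). Sparc lost its call without wild-type library 1 or 3 (adjusted p = 0.081 and 0.053) and with the compared groups alone (0.069). Without wild-type library 1 or 3 the count of members was 1, and without L30F/+ library 3 or L30F/L30F library 1 it was 5. With total read scaling 710 genes were higher and 1187 lower in L30F/+ (954 and 973 with size factors), and 2 members were called higher.

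L30F/L30F against L30F/+ gave 4 members higher and 2 lower, that is 11.8% and 5.88% of the members, beside 8.07% and 8.29% of all genes. These counts are near the shares of all genes and are no result about the members as a set. Tnc rose by 1.38 log2 units (adjusted p = 0.0055, SE 0.29), and Lox rose by 1.14 log2 units (adjusted p = 0.022, SE 0.31). Col4a2 and Loxl1 were the other members called higher (log2 0.74 and 0.50). Pdgfra fell by 0.45 log2 units (adjusted p = 0.014, SE 0.12). Dcn was at 17954, 20862, 17311 and 17276 normalised reads in L30F/+ and 12477, 15467, 17583 and 14199 in L30F/L30F. These ranges overlapped, and Dcn fell by 0.30 log2 units (adjusted p = 0.044, SE 0.10). Without L30F/+ library 2, 13 members were called higher, and without L30F/+ library 3 or 4 or L30F/L30F library 2 or 3 just 1. The call of Tnc held without each library in turn. Those of Lox and Col4a2 ended without L30F/+ library 3 or 4 or L30F/L30F library 1, 2 or 3 (adjusted p up to 0.063 and 0.082), and that of Loxl1 without L30F/+ library 1, 3 or 4 or L30F/L30F library 2, 3 or 4 (up to 0.096). Pdgfra lost its call without L30F/L30F library 1 (0.051), and Dcn without any of the 16 but wild-type library 4, L30F/L30F library 3 and KEAP1 fl/fl library 1 (up to 0.14). With total read scaling 2303 genes were higher and 1147 lower (1602 and 1647 with size factors), and 5 members were higher and 0 lower. The calls of Dcn and Pdgfra thus ended there (adjusted p = 0.17 and 0.056). Thinning to equal depth, which uses the same scaling, ended both as well (0.18 and 0.054). With the compared groups alone Tnc was the member that kept its call.

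The 2 homozygous genotypes were also set against each other. In pups 7 members were higher in L30F/L30F than in KEAP1 fl/fl and 0 lower, beside 1.76% and 2.4% of all genes, with a median of 0.44 over the members and -0.02 over all genes. Mfap5 was higher by 1.03 log2 units (adjusted p = 0.0088, SE 0.12). The others were Col5a2, Col12a1, Bgn, Eln, Mfap4 and Loxl1, with log2 differences from 0.41 (Loxl1) to 0.89 (Eln). Mfap5 alone of the 7 kept its call without each library in turn. The count went down to 1 without wild-type library 2, L30F/L30F library 1 or 2 or KEAP1 fl/fl library 2, and to 2 without wild-type library 3 or KEAP1 fl/fl library 1. With total read scaling 754 genes were higher and 111 lower (370 and 505 with size factors), and 13 members were higher. In adults 7 members were lower in L30F/L30F than in KEAP1 fl/fl and 1 higher, beside 13.5% and 12.9% of all genes, with medians of -0.22 and -0.02.

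The 7 adult members were Lox, Col1a1, Thbs2, Col1a2, Col3a1, Col5a2 and Pdgfra. Lox was lower in L30F/L30F by a log2 difference of -1.36 (adjusted p = 0.0046), Col1a1 by -0.89 (adjusted p = 0.0026) and Thbs2 by -0.67 (adjusted p = 0.0015). Those 3 and Pdgfra (-0.45) kept their calls without each library in turn, whereas Col1a2 lost its call without L30F/L30F library 1 or KEAP1 fl/fl library 2 or 4 (adjusted p up to 0.058). Col3a1 lost its call without wild-type library 1 or 3, L30F/L30F library 1, 2 or 4 or KEAP1 fl/fl library 2, 3 or 4 (up to 0.11). Col5a2 lost its call without these same libraries and without wild-type library 2 or 4 or L30F/+ library 1 or 4 (up to 0.13). Fbln1 was the member higher in L30F/L30F, by 0.23 (adjusted p = 0.043). That call ended without wild-type library 1, L30F/+ library 4, L30F/L30F library 2, 3 or 4 or KEAP1 fl/fl library 1, 2 or 4 (adjusted p 0.050 to 0.12), and also with total read scaling (0.15) or thinning to equal depth (0.18). The count of lower members was 4 without L30F/L30F library 1 or KEAP1 fl/fl library 2 or 4.

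Chains of 1 collagen were compared as ratios within a library. The log2 ratio of Col1a1 to Col1a2 within a library was 0.36 ± 0.10 (SD, n = 4) in adult wild type, 0.38 ± 0.08 (SD, n = 4) in L30F/+, 0.63 ± 0.07 (SD, n = 4) in L30F/L30F and 0.95 ± 0.04 (SD, n = 4) in KEAP1 fl/fl. In pups it was 0.94 ± 0.02, 0.87 ± 0.04 and 0.90 ± 0.02 (SD, n = 3) in wild type, L30F/L30F and KEAP1 fl/fl. In an exact two-sided permutation test the adult L30F/L30F and KEAP1 fl/fl differences from wild type each gave p = 0.029, the smallest that 4 against 4 libraries allow, and 0.071 after adjustment over the 25 ratio comparisons made. The log2 ratio of Col5a1 to Col5a2 was 0.71 ± 0.03 (SD, n = 4) in adult wild type and lower in each adult mutant group, at 0.48 in L30F/+, 0.45 in L30F/L30F and 0.34 in KEAP1 fl/fl. Each of these had the same exact permutation p of 0.029 and adjusted p of 0.071. In pups, 3 against 3 libraries cannot give an exact p under 0.10. Col4a1 to Col4a2 was at 0.77 in wild-type pups and at 0.55 and 0.53 in L30F/L30F and KEAP1 fl/fl pups (exact permutation p = 0.10 each, adjusted 0.14). Col6a1 to Col6a2 was at -0.08 in adult wild type, 0.02 in L30F/+, -0.17 in L30F/L30F and -0.15 in KEAP1 fl/fl, so higher in the heterozygotes and lower in both homozygous groups. Its 3 differences each had an exact permutation p of 0.029 and an adjusted p of 0.071. The log2 ratio of Col1a1 to Pdgfra, a pair chosen after its values were seen, was 3.52 in adult wild type, 4.71 in L30F/L30F and 5.15 in KEAP1 fl/fl. In pups it was 5.63 in wild type, 3.81 in L30F/L30F and 3.50 in KEAP1 fl/fl.

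Genes that work with the members were taken from further lists. Over all genes, 17.1% were called lower and 22% higher in L30F/L30F pups, and 23.2% and 26.3% in KEAP1 fl/fl pups. For adults these shares were 11.8% higher and 10.4% lower in L30F/L30F, and 24.1% and 22.7% in KEAP1 fl/fl. Of 21 genes for collagen processing, 14 were lower and 2 higher in L30F/L30F pups and 17 lower and 2 higher in KEAP1 fl/fl pups, with medians of -0.59 and -0.73. In adults 9 were higher and 0 lower in L30F/L30F, and 11 higher and 1 lower in KEAP1 fl/fl, with medians of 0.29 and 0.40. Serpinh1, the collagen chaperone, fell by 1.73 log2 units (adjusted p = 1.8e-4, SE 0.20) in L30F/L30F pups. P3h1, a prolyl 3-hydroxylase, fell by 1.44 log2 units (adjusted p = 4.8e-6, SE 0.12) in KEAP1 fl/fl pups. P4ha3, a prolyl 4-hydroxylase subunit, rose by 1.69 log2 units (adjusted p = 3.6e-4, SE 0.26) in adult L30F/L30F. In adult KEAP1 fl/fl it rose by 2.07 log2 units (adjusted p = 8.9e-6, SE 0.26). Bmp1, which removes collagen propeptides, rose by 0.86 log2 units (adjusted p = 2.4e-5, SE 0.12) in adult KEAP1 fl/fl. P4hb, a disulfide isomerase that also serves as prolyl hydroxylase subunit, rose by 1.20 log2 units (adjusted p = 8.4e-7, SE 0.07) in L30F/L30F pups. P4hb rose by 1.5 log2 units (adjusted p = 1.1e-7, SE 0.07) in KEAP1 fl/fl pups. Of 24 other matrix proteins, 14 were lower and 1 higher in L30F/L30F pups, and 22 lower and 1 higher in KEAP1 fl/fl pups (medians -0.80 and -1.15). In adults 7 were higher and 1 lower in L30F/L30F, and 11 higher and 2 lower in KEAP1 fl/fl (medians 0.22 and 0.46). Vcan, the large proteoglycan versican, fell by 1.69 log2 units (adjusted p = 4.8e-6, SE 0.13) in KEAP1 fl/fl pups. Col18a1, a basement membrane collagen, rose by 1.26 log2 units (adjusted p = 5.1e-7, SE 0.12) in KEAP1 fl/fl adults.

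The next 3 lists stand beside the same shares of all genes. These were 17.1% lower and 22% higher in L30F/L30F pups, and 23.2% and 26.3% in KEAP1 fl/fl pups. For adults they were 11.8% higher and 10.4% lower in L30F/L30F, and 24.1% and 22.7% in KEAP1 fl/fl. A count near its share is no result about the list. Of the matrix proteases and their inhibitors, 15 of 17 were tested in pups and 16 in adults. In pups 4 were lower and 1 higher in L30F/L30F and 7 lower and 1 higher in KEAP1 fl/fl (medians -0.16 and -0.40). In adults 4 were higher and 0 lower in L30F/L30F and 8 higher and 1 lower in KEAP1 fl/fl (medians 0.06 and 0.86). Timp4, an inhibitor and the gene called higher in L30F/L30F pups, rose by 2.23 log2 units there (adjusted p = 7.0e-5, SE 0.25). Mmp14, a membrane-bound collagenase, fell by 0.99 log2 units (adjusted p = 8.7e-7, SE 0.07) in KEAP1 fl/fl pups. Mmp9, a gelatinase that neutrophils also make, rose by 3.08 log2 units (adjusted p = 1.0e-4, SE 0.49) in KEAP1 fl/fl adults. Of 21 genes of TGF-beta and PDGF signalling, 7 were lower and 5 higher in L30F/L30F pups, and 11 lower and 3 higher in KEAP1 fl/fl pups (medians -0.15 and -0.40). In adults 5 were higher and 2 lower in L30F/L30F, and 10 higher and 4 lower in KEAP1 fl/fl (medians 0.17 and 0.50). Among the ligands, Tgfb3 fell by 1.29 log2 units (adjusted p = 4.3e-6, SE 0.10) and Tgfb2 fell by 1.10 log2 units (adjusted p = 1.3e-5, SE 0.10) in KEAP1 fl/fl pups. Tgfb1 rose by 1.22 log2 units (adjusted p = 1.2e-5, SE 0.16) in KEAP1 fl/fl adults. Ccn2, a secreted target of TGF-beta, rose by 1.72 log2 units (adjusted p = 0.0084, SE 0.41) in L30F/L30F adults. In L30F/+ it rose by 1.55 log2 units (adjusted p = 0.03, SE 0.41). Of 20 other fibroblast markers, 10 were lower and 3 higher in L30F/L30F pups and 11 lower and 3 higher in KEAP1 fl/fl pups (medians -0.42 and -0.73). In adults 6 were higher and 2 lower in L30F/L30F and 7 higher and 3 lower in KEAP1 fl/fl (medians 0.05 and 0.04). These 20 genes summed to 69971 to 83240 normalised reads in adult wild type and 77360 to 89831 in L30F/+. The sum was 51038 to 71578 in L30F/L30F, which overlapped wild type, and 39246 to 46816 in KEAP1 fl/fl, wholly below it. The members' share of reads was above wild type in both of these groups. In pups the sum was below wild type in both mutant groups, without overlap. Such a sum weighs each gene by its reads. Lrrc15, a marker of activated fibroblasts, rose by 3.01 log2 units (adjusted p = 0.0015, SE 0.55) in L30F/L30F adults and was at 0 in at least 1 adult wild-type library. Gsn, the actin-severing protein gelsolin, fell by 2.16 log2 units (adjusted p = 9.4e-9, SE 0.14) in KEAP1 fl/fl adults.

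Markers of other cells also differed between the groups, and their part in the results on the 34 genes was not tested. Beside their counts stand 22% of all genes called higher and 17.1% lower in L30F/L30F pups, and 26.3% and 23.2% in KEAP1 fl/fl pups. For adults the shares were 11.8% higher and 10.4% lower in L30F/L30F, and 24.1% and 22.7% in KEAP1 fl/fl. The epithelial counts in KEAP1 fl/fl adults were near these. The 11 genes of basal and suprabasal epithelium summed to 173620 to 219330 normalised reads in wild-type pups, 284850 to 336160 in L30F/L30F and 375050 to 427220 in KEAP1 fl/fl. In adults they summed to 1037700 to 1349500 in wild type, 674970 to 958630 in L30F/+, 649560 to 780860 in L30F/L30F and 372770 to 450770 in KEAP1 fl/fl. The sums of the groups thus stood in the reverse order of the members' share of reads at both ages, with the L30F/+ and L30F/L30F ranges overlapping. Of these 11 genes, 7 were called higher and 3 lower in L30F/L30F pups and 8 and 3 in KEAP1 fl/fl pups, and in adults 3 and 4 in L30F/L30F and 3 and 3 in KEAP1 fl/fl, where their median log2 fold change was 0.13 although their sum was lower. Striated muscle genes, 20 in the list, summed to 1279700 to 1487900 in adult wild type, 1728300 to 2310900 in L30F/+, 1221700 to 1720400 in L30F/L30F and 458540 to 696340 in KEAP1 fl/fl, where 18 of the 20 were lower and 1 higher. Smooth muscle and pericyte genes, 14 in the list, were lower for 11 and higher for 0 in KEAP1 fl/fl adults, and in pups summed to 63108 to 64403 in wild type, 26681 to 68737 in L30F/L30F and 29517 to 35489 in KEAP1 fl/fl. Leukocyte genes, 12 in the list, summed to 4424.6 to 7620.0 in adult wild type, 8419.1 to 39494 in L30F/L30F and 72090 to 89877 in KEAP1 fl/fl. Of the 12, 8 were higher and 0 lower in L30F/L30F and 11 higher and 0 lower in KEAP1 fl/fl. In pups, where most members fell, the sum over 11 leukocyte genes was higher in both mutant groups. It was 3539.9 to 3827.4 in wild type, 4980.1 to 6609.7 in L30F/L30F and 5337.7 to 7752.5 in KEAP1 fl/fl. There 5 were called higher and 1 lower in L30F/L30F, and 4 higher and 3 lower in KEAP1 fl/fl.

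Proliferation genes and lists of other small compartments were counted in the same way. In L30F/L30F pups 17.1% of all genes were called lower and 22% higher, and in KEAP1 fl/fl pups 23.2% and 26.3%. Among adults 4.9% were lower and 4.8% higher in L30F/+, 10.4% and 11.8% in L30F/L30F, and 22.7% and 24.1% in KEAP1 fl/fl. Of 20 cell cycle genes, 18 were lower in L30F/L30F pups and 14 in KEAP1 fl/fl pups with 0 higher in either, and in adults 13 were lower in L30F/+, 5 higher and 1 lower in L30F/L30F, and 15 higher and 0 lower in KEAP1 fl/fl. The 12 endothelial genes were 4 lower and 3 higher in L30F/L30F pups, 7 lower and 2 higher in KEAP1 fl/fl pups, 2 higher in L30F/L30F adults, and 5 higher and 1 lower in KEAP1 fl/fl adults. The 5 mesothelial genes summed to 2214.7 to 3268.9 in wild-type pups, 187 to 548 in L30F/L30F and 174 to 463 in KEAP1 fl/fl. Adipose genes, 8 in the list, were lower for 1 and 2 in the mutant pup groups and higher for 0. In the 10 genes of the epithelial side of the basement membrane 1 was higher and 0 lower in each mutant pup group. Of these 10, 1 was higher and 1 lower in L30F/L30F adults, and 2 higher and 4 lower in KEAP1 fl/fl adults. The pup counts of the adipose and basement membrane lists were near or under the shares of all genes. Without L30F/L30F pup library 1, the library with the thyroid signal, 23 members were called lower with a median of -0.97. Without library 3, which had Ddx3y at 0, 20 were called lower with a median of -0.79.

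**Figure D5:**
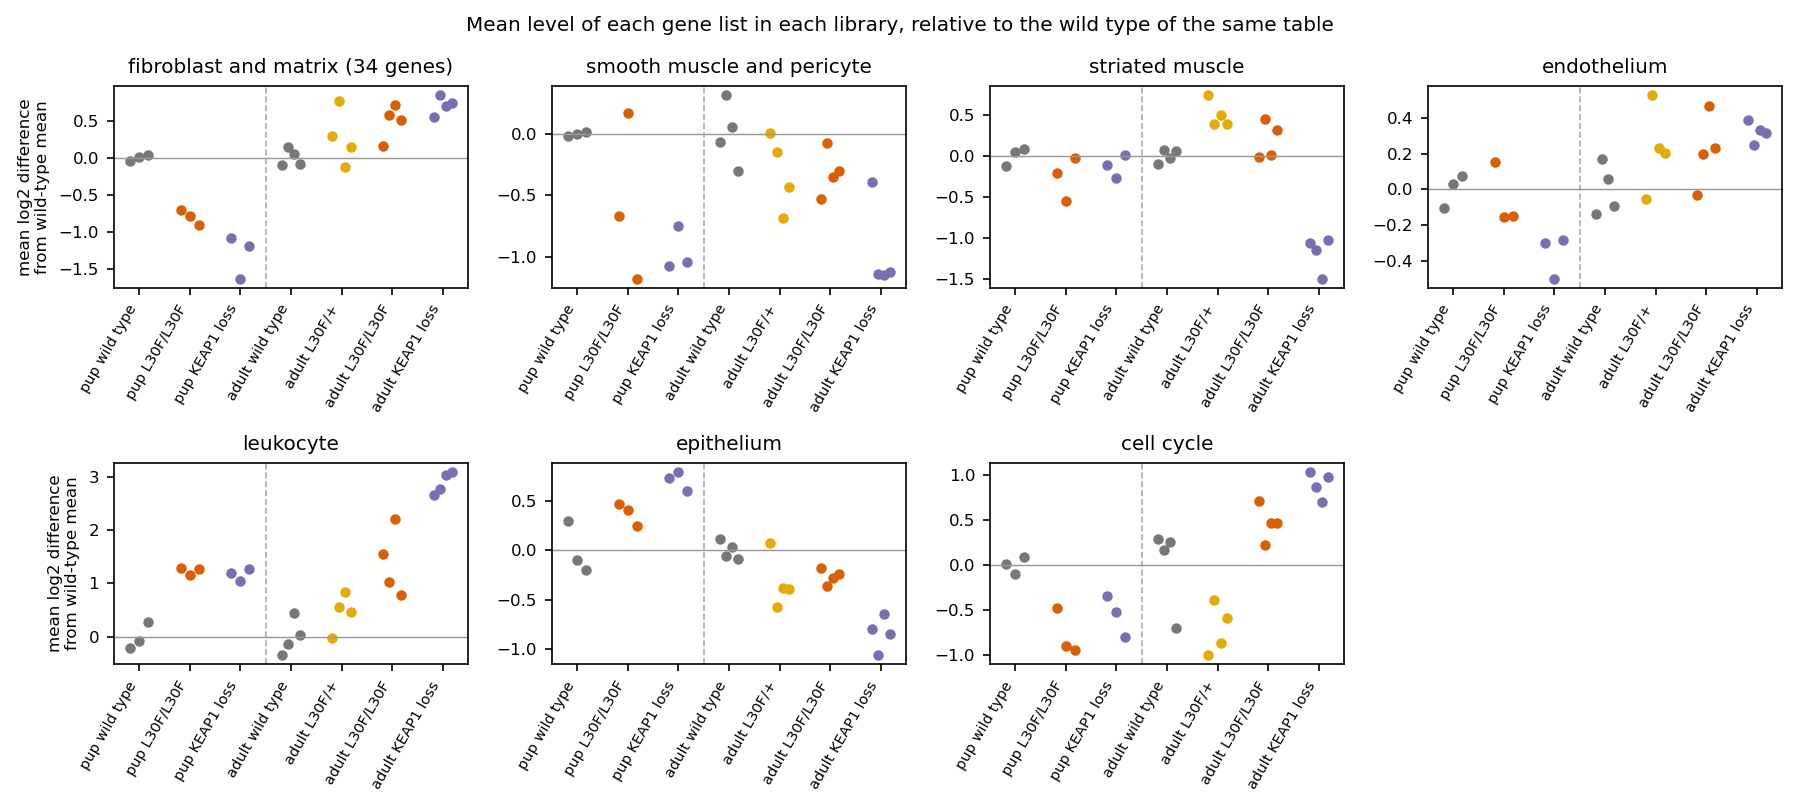
Mean difference from wild type of the same table, in log2(normalised reads + 1), over the 34 members and over 6 lists of other cell types or states, 1 point per library. The homozygous mutant points of the epithelium panel lie above most wild-type points in pups and below all of them in adults, and among adult libraries those of KEAP1 fl/fl are lowest for striated muscle and highest for leukocyte genes. For smooth muscle 3 of the 4 KEAP1 fl/fl adults are lowest, and library 1, at -0.39, lies within the range of the L30F groups.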

How the data were processed

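The authors deposited log2 values for 25 mouse esophagus libraries, in 1 table per experiment. The submitters' processing notes name Salmon and GRCm39; no source used here gives versions, annotation or filters. RNA was prepared with a directional library kit, per the labels. The lowest value in both tables is 2, and values step as log2 of reads over a size factor plus 4, from which whole reads followed (of values up to 1000 reads, 100% were whole to within 0.1). The tables were normalised separately.

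Values were turned back to normalised reads and tested with limma 3.58.1 (trend and robust, statmod 1.5.0, R 4.3.3) on log2(value + 1), all groups of a table in 1 fit with no block. The filter asked for 1 normalised read or more in at least 3 pup or 4 adult libraries and left 21007 and 19857 genes. Effects of the 2 ages were compared by their difference over the root of the summed squared standard errors, with Satterthwaite degrees of freedom. Ratios within a library used exact permutation tests. The test was checked on simulated data with the same dispersion for every gene and no outlying library. The spread of the real libraries may differ from that, so the check does not cover it. Replicate libraries differed beyond counting noise, with a chi-square per gene of at least 10.7 in each pair, so none was merged.

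The members, the further lists and the tests were chosen with earlier results of these data known. All 34 members may be named. Values per library are given for the 3 largest called rises and falls in each comparison with wild type, for the 4 members with the smallest adjusted p in each age difference, and for members called against the majority; from each list, genes with the smallest adjusted p. The pair Col1a1 and Pdgfra was among the ratios compared, chosen after its values were seen. Alternatives were offsets of 0.1, 4 and 5, no filter or a minimum of 10, TMM and total read scaling, limma-voom on the recovered reads, a replicate block, the compared groups alone, each library left out, and, chosen after seeing the data, thinning to equal depth. Thinned libraries were scaled by total reads, without size factors.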

Additional observations from a re-analysis of the deposited data

Results flagged for a closer look

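Of 136 adult groups of 4 libraries checked, 1 per member and genotype, 8 had a library whose gap to its neighbour, as a share of the group's range, exceeded Dixon's 95% critical value. Chance flags about 1 in 20 groups. These were Col12a1 in KEAP1 fl/fl library 2 (8065.7 normalised reads), Col14a1, Sparc and Pi16 in L30F/L30F library 1 (2670.8, 15766 and 962.28), Mfap4 and Pdgfrb in L30F/+ library 2 (2510.4 and 1761.1), Pdgfra in KEAP1 fl/fl library 3 (3067.4) and Fap in wild-type library 4 (262.13). L30F/L30F library 1 was the low library in its 3 cases, and L30F/+ library 2 the high one in its cases.

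The effect of the genotype differed between pups and adults for 28 members with L30F/L30F. The adult minus pup difference, on the log2 scale, was 2.20 (Col1a1), 1.87 (Col1a2), 2.17 (Col3a1), 1.62 (Col5a1) and 1.72 (Col5a2) for the fibrillar collagens. For the basement membrane collagens it was 1.15 (Col4a1), 1.03 (Col4a2) and 1.75 (Col15a1). For the other collagens it was 1.01 (Col6a1), 1.25 (Col6a2), 2.07 (Col6a3), 0.95 (Col12a1) and 2.65 (Col14a1). For the small leucine-rich proteoglycans it was 1.09 (Dcn), 2.69 (Lum) and 0.80 (Bgn). For the elastic fibre genes it was 1.90 (Fbn1) and 1.47 (Mfap5). For the lysyl oxidases it was 1.28 (Lox) and 1.14 (Loxl1). For the matricellular genes it was 2.62 (Postn), 2.05 (Tnc), 1.65 (Fn1), 1.72 (Sparc) and 1.14 (Dpt). For the receptors and surface genes it was -0.81 (Pdgfra), 2.11 (Fap) and 1.04 (Pi16).

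With KEAP1 fl/fl the effect differed for 30 members. The adult minus pup difference, on the log2 scale, was 3.51 (Col1a1), 2.89 (Col1a2), 3.20 (Col3a1), 2.37 (Col5a1) and 2.82 (Col5a2) for the fibrillar collagens. For the basement membrane collagens it was 1.98 (Col4a1), 1.82 (Col4a2) and 1.72 (Col15a1). For the other collagens it was 0.94 (Col6a1), 1.09 (Col6a2), 2.13 (Col6a3), 2.11 (Col12a1) and 3.39 (Col14a1). For the small leucine-rich proteoglycans it was 1.27 (Dcn), 3.06 (Lum) and 1.68 (Bgn). For the elastic fibre genes it was 2.05 (Eln), 2.55 (Fbn1), 2.14 (Mfap4) and 2.71 (Mfap5). For the lysyl oxidases it was 3.62 (Lox) and 1.85 (Loxl1). For the matricellular genes it was 3.62 (Postn), 2.77 (Tnc), 2.88 (Fn1), 2.48 (Sparc) and 1.00 (Dpt). For the receptors and surface genes it was 0.44 (Pdgfrb), 2.37 (Fap) and 1.86 (Pi16).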

How the results depend on the processing

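The counts of members called in the 4 comparisons of homozygotes with wild type and in both age differences stayed within 1.5 times under the 11 alternatives that keep every library (thinning was chosen after seeing the data) and without each library in turn. With every library kept they were 22 to 26 lower in L30F/L30F pups, 29 to 31 lower in KEAP1 fl/fl pups, 18 to 19 and 20 to 22 higher in adults, and 27 to 28 and 30 to 31 in the age differences. Leaving out 1 library gave 20 to 23 and 27 to 30 in pups, 14 to 19 and 19 to 22 in adults, and 26 to 28 and 29 to 31 in the age differences. The smaller comparisons moved more. L30F/L30F against KEAP1 fl/fl pups had 7 members higher, 13 with total read scaling, 13 when thinned to equal depth, 1 when fitted on the compared groups alone and 1 to 10 without 1 library. The L30F/+ count of 3 was 1 with the compared groups alone and 1 to 5 without 1 library. L30F/L30F against L30F/+ gave 4, 1 with the compared groups alone and 1 to 13 without 1 library, the 13 being without L30F/+ library 2. Adult L30F/L30F against KEAP1 fl/fl gave 7, 12 with the compared groups alone and 4 to 10 without 1 library. The cause of these shifts was not tested. Of 175 member results that were called, 145 held in every fit; over 4834 refits 200 calls were lost and 0 reversed.

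Replicate numbers were not taken to pair the libraries, since no label says that they do and not every same-numbered pair was over 0.1. Same-numbered libraries of different groups had correlations of -0.12 to 0.31 in pups, with 3 of 9 pairs over 0.1, and -0.16 to 0.14 in adults, with 3 of 24. Pairs with different numbers ran from -0.17 to 0.11 in pups and from -0.25 to 0.25 in adults. With the replicate block the counts were 3 in L30F/L30F against KEAP1 fl/fl pups and 5 in L30F/+, where Lum lost its call (adjusted p = 0.061). Fbln1 in adult L30F/L30F against KEAP1 fl/fl lost its call too (0.058). Counts were within 1.5 times of those without it elsewhere. Depth limits the lowest member most: Fap had 36.1 normalised reads in KEAP1 fl/fl pup library 2. As a hint of pairing in pups, 7 of 9 pup libraries correlated best with a library of their own number, and 6 of 16 adult libraries did. Whether the pup libraries were paired is not known.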
